A study of Rattus norvegicus with 19 samples.

Results

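Gene expression in rat somatosensory cortex 48 h after each of 3 treatments was compared with expression 7 or 8 h after them. Of the 19 arrays of the series, 6 entered the comparison, namely every treated array of set 1 taken at 48 h (3 arrays) and at 7 or 8 h (3 arrays). In each case the cortex of an adult male Wistar rat had been perfused with artificial cerebrospinal fluid holding 1 agent. The agents were deoxycholic acid (DOC, 2 mM), a bile acid that opens the blood-brain barrier, bovine serum albumin (0.1 mM), the main serum protein, and TGF-Beta1 (10 ng/ml), a cytokine. DOC was sampled at 48 h and 7 h, and albumin and TGF-Beta1 at 48 h and 8 h. There was 1 array for each treatment and time, so the 3 arrays of a time are of 3 treatments and are not replicates of 1 condition. Set 1 held a further treated array per agent at 24 h and 1 sham-operated array, also at 24 h. No sham was sampled at 48 h or at 7 or 8 h, so the effect of the agents over time, recovery from the operation and time of day cannot be told apart. The series addresses how barrier opening, albumin and TGF-Beta1 lead to epileptic activity of the cortex.

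When the blood-brain barrier opens, serum proteins enter the cortex and meet astrocytes, microglia and vessels. Cytokine genes under control of the transcription factor NF-kappaB and genes switched on by glucocorticoid stress hormones are known to respond within hours of such an injury. Reactive astrocytes, which build intermediate filaments, and microglia, which proliferate and turn to phagocytosis, are known to follow over days.

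Expression was given as a log2 signal for each gene, so that a difference of 1 is a 2-fold change. Values of single arrays are in the order DOC, albumin and TGF-Beta1 throughout. The median signal of the set 1 arrays lay between 5.085 and 5.167, and signals below about 3 are near the floor of the arrays. Of 14217 genes with a probe set, 10018 had a signal above 4 on at least 2 arrays of set 1 and were tested. The test was limma's moderated two-sided test with treatment as a block. Its p-values were adjusted for all 10018 genes by Benjamini and Hochberg's method, and a gene passed at an adjusted p under 0.05. Its spread is the departure of the 9 treated arrays of set 1 from a common time course, with 4 residual degrees of freedom. Markers of neurons and glia were present as in cortex: Snap25 of the synapse read 14.2 to 14.5 on all 6 arrays, and Mbp of myelin read 14.4 to 14.9.

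At 48 h, 392 genes were higher (3.91% of those tested) and 118 were lower (1.18%), together 510 (5.09%). The rise was at least 2-fold for 276 genes and at least 8-fold for 34, and the fall was at least 2-fold for 62 genes and at least 8-fold for 4. Genes of dividing cells, phagocytes, complement, reactive astrocytes and extracellular matrix were among those that rose, while cytokine, glucocorticoid-responsive and red cell genes were among those that fell. The 3 arrays at 48 h lay all above the 3 at 7/8 h for 385 of the 392 higher genes, and all below them for 110 of the 118 lower genes. Among all genes tested, 14.8% lay all above and 9.22% lay all below in this way. For 149 tested genes the 48 h arrays were needed to pass the filter, and 64 of the 392 rises were among these. The 7/8 h arrays were needed for 87 genes, and 4 of the 118 falls were among those. In bulk tissue, fewer cells of a type and less RNA per cell cannot be told apart.

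**Figure D1:**
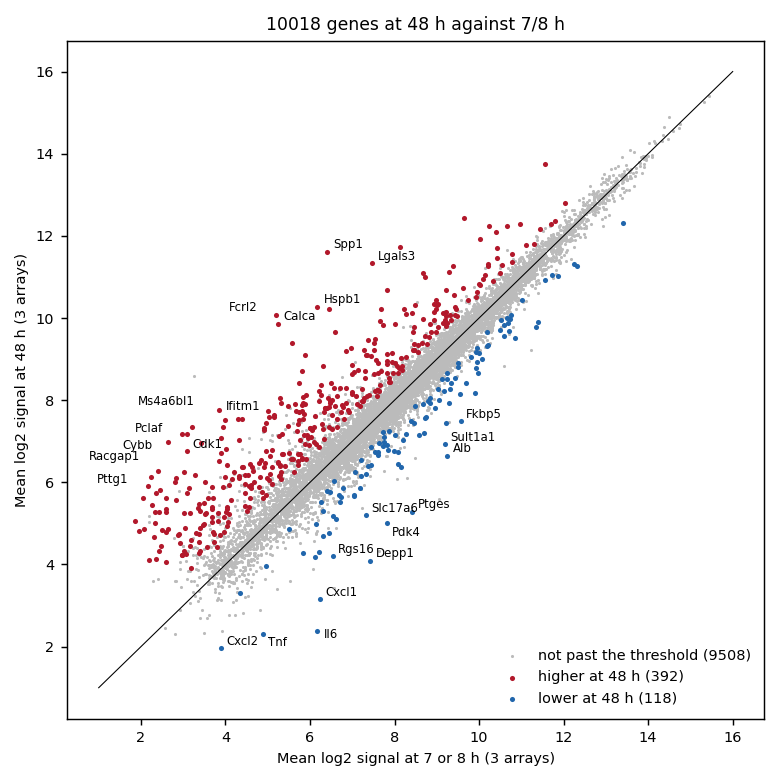
Mean log2 signal of each of 10018 genes at 48 h (vertical axis, 3 arrays) against the mean at 7 or 8 h (horizontal axis, 3 arrays), with the line of equal signal. The 392 genes that rose (red) reach further from the line than the 118 that fell (blue), and the 12 largest changes in each direction are named.

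How many genes passed depended on which arrays were in the fit. Without the 3 TGF-Beta1 arrays, 6 genes passed as higher and 0 as lower by limma (1283 genes at an unadjusted p under 0.05), without the 3 DOC arrays 187 and 49, and without the 3 albumin arrays 186 and 27. Leaving out 1 array left 167 genes passing without DOC at 7 h, 303 without DOC at 48 h, 230 without albumin at 8 h, 346 without albumin at 48 h (69 of them lower), and 172, 338 and 208 without TGF-Beta1 at 8, 24 and 48 h. At the threshold, Sdf2l1, Kcnk4 and Efemp1 lay just inside, with adjusted p of 0.0494 to 0.0499, and Rab32, Arrdc3 and C1h10orf143 just outside, at 0.0501.

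The 12 largest rises began with Spp1, which encodes osteopontin, a secreted matrix protein of activated phagocytes. Spp1 read 12.84, 10.80 and 11.18 at 48 h, against 6.31, 7.04 and 5.88 at 7/8 h, a difference of 5.19 ± 0.65 (SE; 36.6-fold; limma adjusted p = 0.00772). The sham array read 2.97, below all 6. Calca, which encodes the neuropeptide CGRP, read 9.83, 10.09 and 9.65 at 48 h, against 5.23, 5.30 and 5.18 at 7/8 h (4.62 ± 0.21, limma adjusted p = 0.000568). The treatments differed little for this gene at either time, and the sham read 4.39. With its 3 probe sets averaged, the difference of Calca was 2.64. Its close relative Calcb, chosen after its values were seen, rose by 1.92 ± 0.29 (limma adjusted p = 0.0146), and the 2 genes are similar enough that their probe signals are uncertain as separate measures. Hspb1, a small heat shock protein, read 9.97, 10.46 and 10.40 at 48 h, against 4.40, 7.22 and 6.87 at 7/8 h (4.12 ± 0.53, limma adjusted p = 0.00906). Hspb1 was higher still at 24 h, at 11.24, 11.18 and 11.02, so its 48 h signal lay below its 24 h signal in all 3 treatments. The sham read 6.18 for Hspb1, above the early array of DOC and below those of albumin and TGF-Beta1.

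Fcrl2, an Fc receptor-like gene, read 10.35, 9.67 and 10.21 at 48 h, against 3.36, 5.83 and 6.40 at 7/8 h (4.88 ± 0.62). The DOC array at 7 h was the lowest, at the level of the sham array (3.42). Ms4a6bl1 rose by 4.14 ± 0.24 (2.30 with its probe sets averaged) and Ifitm1, a membrane protein induced by interferon, by 3.92 ± 0.41. The remaining members of the 12 were Cybb and Lgals3, described with the phagocyte genes, and Pclaf, Cdk1, Racgap1 and Pttg1, described with the cell cycle. Adjusted p-values of the 12 ran up to 0.0251, that of Racgap1.

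**Figure D2:**
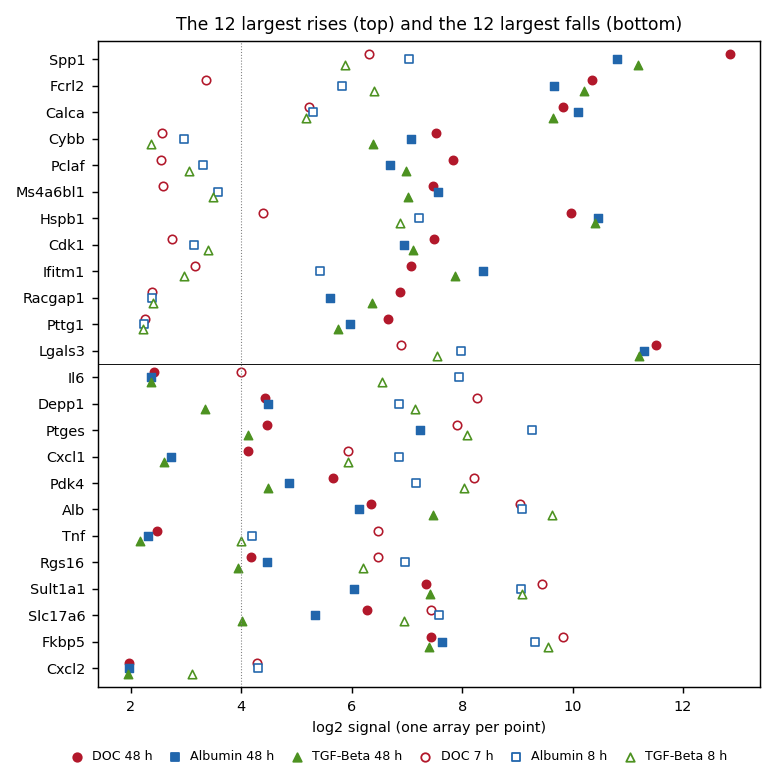
Log2 signal of the 12 genes with the largest rise and the 12 with the largest fall at 48 h, 1 point per array, filled for 48 h and open for 7 or 8 h, with shape and colour by treatment. Filled and open symbols do not overlap, as the choice of the 24 genes required, and the dotted line marks the log2 signal of 4 used as the filter.

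The gene lists used to describe the response number 37, and genes of the lists made up 107 of the 392 higher and 23 of the 118 lower genes. The share of all tested genes that is on a list is not given here, so these counts show no excess. Some genes are on more than 1 list, Lgals3 among them. Counts within a list stand beside 3.91% higher and 1.18% lower among all genes tested. Over all genes tested the median difference was 0.01. The lists were drawn up with results of these data already known, so their direction is not independent evidence.

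**Figure D3:**
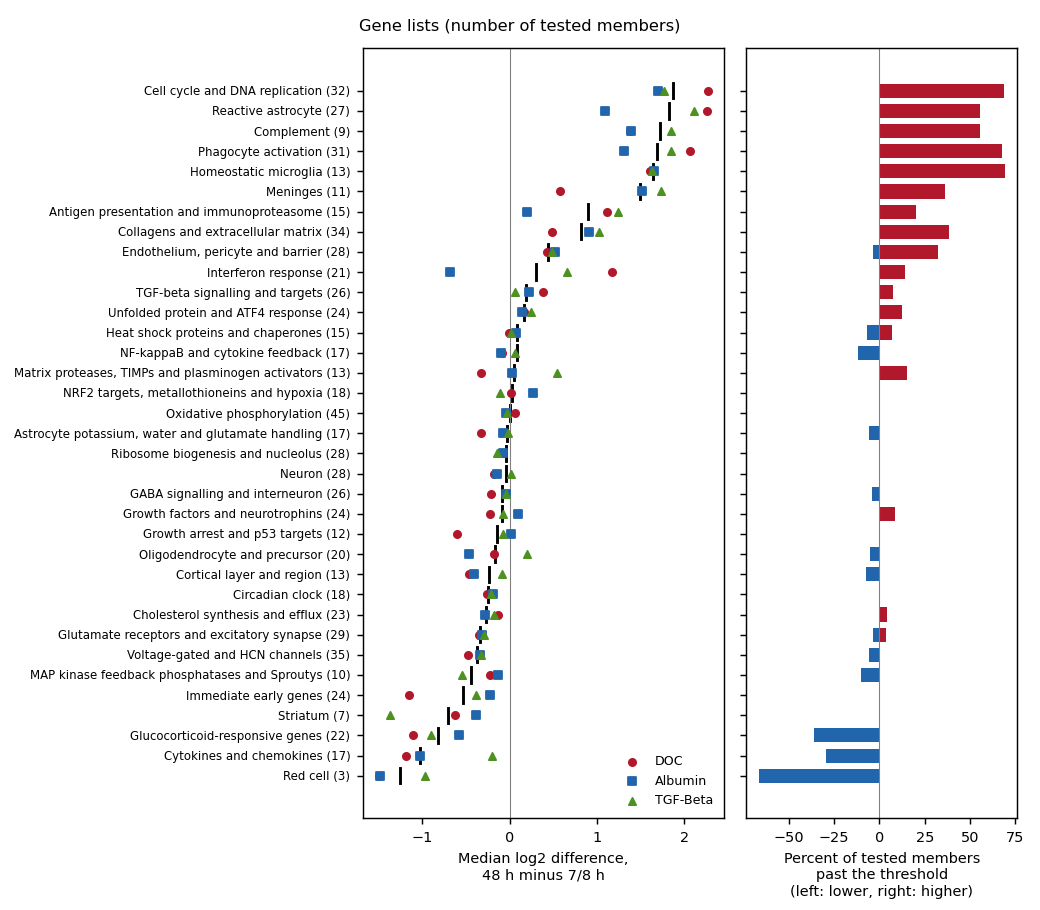
Gene lists with at least 3 tested members: at left, the median log2 difference (48 h minus 7/8 h) over the members, as a black bar for the fit and as symbols for each treatment, and at right the percent of members that rose (red) or fell (blue). Cell cycle, astrocyte, complement, phagocyte and microglia lists stand at the top, with medians of 1.64 to 1.87, and glucocorticoid, cytokine and red cell lists at the foot.

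Some cytokines that were high early were at the sham level by 48 h. Of 17 cytokine and chemokine genes tested, 5 fell (Il6, Cxcl1, Tnf, Cxcl2 and Il33), none rose and the median difference was -1.02. It was 0.17 over the members with a mean above 5 on the 6 arrays, so the median rests on genes of low signal, and 13 further genes were below the filter. For 7 of the 17, the 7/8 h arrays were needed to pass the filter, and 3 of the 5 falls were among these, so that the count and the median are partly a matter of which genes were tested. Il6, the acute-phase cytokine, read 2.42, 2.36 and 2.36 at 48 h, against 3.99, 7.95 and 6.55 at 7/8 h (-3.78 ± 0.73, limma adjusted p = 0.0356). The 48 h arrays were at the level of the sham (2.33), and at 7/8 h the albumin array was the highest. Cxcl1, which attracts neutrophils, read 4.12, 2.72 and 2.61 at 48 h, against 5.94, 6.85 and 5.94 at 7/8 h (-3.09 ± 0.66, limma adjusted p = 0.0472). Tnf read 2.47, 2.31 and 2.17 at 48 h, against 6.47, 4.19 and 3.99 at 7/8 h (-2.57 ± 0.52, limma adjusted p = 0.0410). Here DOC was the highest of the early arrays, unlike for Il6. Cxcl2, a second neutrophil chemokine, fell by 1.94 ± 0.40 (limma adjusted p = 0.0416). Il33, an alarmin of astrocytes and oligodendrocytes, read 7.40, 7.48 and 7.45 at 48 h, against 8.57, 8.51 and 8.32 at 7/8 h (-1.02 ± 0.13), and the sham read 8.59. Il33 thus ended below the sham, while Il6, Tnf and Cxcl2 ended near it. With no filter on low values, Il6, Cxcl1, Tnf and Cxcl2 missed the threshold (limma adjusted p = 0.116, 0.136, 0.123 and 0.122). With only the 6 arrays of the comparison Il6 and Tnf missed it (0.0745 and 0.0623), without the block for treatment Cxcl2 did (0.0644), and with averaged probe sets Cxcl1 did (0.0541). The other probe set of Tnf was near the floor at both times, with means of 2.35 at 48 h and 2.37 at 7/8 h. With its probe sets averaged, Tnf was below the filter and was not tested.

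Ccl2, the monocyte chemokine, did not follow this course; it was chosen after its values were seen. Ccl2 read 9.56, 9.31 and 8.40 at 48 h, against 8.60, 9.73 and 8.46 at 7/8 h, a difference of 0.17 ± 0.44 (limma adjusted p = 0.875), and 2.83 in the sham. Its signal was far above the sham on all 6 arrays.

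Of 17 genes that restrain or relay NF-kappaB and cytokine signals, 2 fell and the median difference was 0.08 (-0.05 after quantile normalisation). Nfkbiz, an inhibitor-like partner of NF-kappaB, read 3.93, 4.88 and 3.76 at 48 h, against 6.25, 6.18 and 5.89 at 7/8 h (-1.92 ± 0.24, limma adjusted p = 0.00732). Nfkbia, the inhibitor that holds NF-kappaB in the cytoplasm, fell by 1.22 ± 0.24 (limma adjusted p = 0.0384). Ripk2, a kinase of that pathway, differed by 0.68 ± 0.19 and Zfp36, which destabilises cytokine mRNAs, by -1.39 ± 0.47, and neither passed (limma adjusted p = 0.0977 and 0.152).

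The promoters of these falling genes were searched for a form of the NF-kappaB site (GGG, any 2 bases, then TTTCC) on both strands of the 300 bases from 250 before to 50 after the start given by RefSeq (build GRCr8). The motif was present in 5 of the 7 promoters of the cytokine and NF-kappaB genes that fell, against 1.53% of 33469 promoters in the table and 1.57% of 8397 promoters of tested genes. The 5 were those of Cxcl1, Cxcl2, Il6, Nfkbia and Nfkbiz. Members of these lists that did not fall were not counted apart, so the share cannot be tied to the fall. A match is a run of letters and no measure of binding, and signalling by NF-kappaB was not measured. The promoters of the 2 neutrophil chemokines are shown because each holds 2 matches close to the start. Cxcl1 lies at chr14:17479272-17479571 and Cxcl2 at chr14:17467206-17467505, both on the minus strand, and capitals mark the matches.
Cxcl1: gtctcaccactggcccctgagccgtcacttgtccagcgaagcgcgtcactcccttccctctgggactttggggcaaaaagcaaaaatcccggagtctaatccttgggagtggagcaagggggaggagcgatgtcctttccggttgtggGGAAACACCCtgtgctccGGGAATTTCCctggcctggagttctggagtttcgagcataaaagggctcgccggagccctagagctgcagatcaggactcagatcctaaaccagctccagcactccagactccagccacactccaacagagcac
Cxcl2: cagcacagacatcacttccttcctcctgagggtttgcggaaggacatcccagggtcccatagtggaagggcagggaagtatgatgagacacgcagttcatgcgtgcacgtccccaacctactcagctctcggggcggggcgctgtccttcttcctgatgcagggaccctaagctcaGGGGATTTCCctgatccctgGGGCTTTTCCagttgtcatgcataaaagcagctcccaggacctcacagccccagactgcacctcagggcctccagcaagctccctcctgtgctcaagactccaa

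Genes known to be induced by glucocorticoids were next. Of 22 tested, 8 fell (Fkbp5, Tsc22d3, Sult1a1, Pdk4, Gjb6, Nfkbia, Arrdc2 and Errfi1, of which Arrdc2 was chosen after its values were seen), none rose, and the median difference was -0.82. Fkbp5, a co-chaperone of the glucocorticoid receptor, read 7.44, 7.63 and 7.40 at 48 h, against 9.83, 9.32 and 9.56 at 7/8 h (-2.08 ± 0.17, limma adjusted p = 0.00203). By 24 h it read 7.88, 7.35 and 7.44, values already close to those at 48 h, and the sham read 7.0. Tsc22d3, the leucine zipper protein GILZ, read 9.54, 10.11 and 10.08 at 48 h, against 11.39, 11.33 and 11.48 at 7/8 h (-1.49 ± 0.16, limma adjusted p = 0.00461). Pdk4, which blocks the entry of pyruvate into the citric acid cycle, fell by 2.80 ± 0.35 (a difference of -1.43 with its probe sets averaged) and Sult1a1, a sulfotransferase of phenols, by 2.27 ± 0.26. Gjb6, the astrocyte connexin 30, read 7.61, 8.04 and 8.91 at 48 h, against 9.86, 9.85 and 10.00 at 7/8 h (-1.72 ± 0.27, limma adjusted p = 0.0171). All 3 arrays at 48 h were below all 3 early arrays for these genes. The sham read 10.22 for Tsc22d3, 5.19 for Pdk4, 8.94 for Sult1a1 and 8.89 for Gjb6, so their courses beside it differed. Fkbp5, Tsc22d3, Pdk4 and Gjb6 were above the sham on all 3 early arrays. Sult1a1 was near the sham early, at 9.44, 9.07 and 9.09, and below it at 48 h, at 7.34, 6.04 and 7.41. At 48 h Tsc22d3 was close to the sham with albumin and TGF-Beta1 (10.11 and 10.08) and lower with DOC (9.54). A glucocorticoid response element, searched on both strands as GNACA, any 3 bases, then TGTNC, was found in 0 of the 8 promoters and in 0.439% of all promoters.

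Depp1, Ptges, Rgs16 and Alb, also among the 12 largest falls, lie outside these lists. Depp1, a target of FOXO transcription factors, read 4.43, 4.49 and 3.34 at 48 h, against 8.26, 6.86 and 7.15 at 7/8 h (-3.34 ± 0.40, limma adjusted p = 0.00657). Ptges, which makes prostaglandin E2, read 4.47, 7.24 and 4.13 at 48 h, against 7.90, 9.27 and 8.09 at 7/8 h (-3.14 ± 0.44, limma adjusted p = 0.0124). Albumin gave the highest Ptges signal at both times. Rgs16, which shortens G protein signals, fell by 2.34 ± 0.17 (limma adjusted p = 0.00158). Alb, the rat albumin gene, read 6.35, 6.13 and 7.47 at 48 h, against 9.04, 9.08 and 9.63 at 7/8 h (-2.60 ± 0.39, limma adjusted p = 0.0147). With the sham at 8.56, Alb was below the sham at 48 h in all 3 treatments, and the albumin-treated arrays lay close to the DOC arrays.

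Immediate early genes of neuronal activity did not pass the test. Of 24 tested, 0 passed by limma and 22 had a difference below 0, with a median of -0.53. Fos read 8.07, 9.85 and 8.60 at 48 h, against 11.30, 10.35 and 10.09 at 7/8 h (-1.74 ± 0.54, limma adjusted p = 0.128), and Egr1 differed by -0.78 ± 0.23 (limma adjusted p = 0.111). The difference of the list was largest with DOC, with a median of -1.15 there, -0.22 with albumin and -0.39 with TGF-Beta1. Of 10 tested genes that damp MAP kinase signals, phosphatases and Sproutys among them, 1 passed. It was Errfi1, an inhibitor of the EGF receptor also counted with the glucocorticoid genes, which fell by 0.78 ± 0.17 (limma adjusted p = 0.0485).

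Genes of cell division had a median difference of 1.87. Of 32 tested, 22 rose, none fell, and 10 others were below the filter. For 18 of the 32, the 48 h arrays were needed to pass the filter on low signals, and 14 of the 22 rises were among these, so that the count of rises and the median are partly a matter of which genes were tested. Cdk1, the kinase that starts mitosis, read 7.49, 6.95 and 7.11 at 48 h, against 2.74, 3.14 and 3.39 at 7/8 h (4.09 ± 0.46, limma adjusted p = 0.00574). Pclaf, which binds the replication clamp PCNA, rose by 4.20 ± 0.56, Racgap1, which acts in cytokinesis, by 3.88 ± 0.68 (2.16 with its probe sets averaged) and Pttg1, the securin that holds sister chromatids together, by 3.88 ± 0.18. Pttg1 read 6.65, 5.97 and 5.75 at 48 h, against 2.26, 2.24 and 2.23 at 7/8 h. The early arrays of these 4 genes were at or near the floor of the arrays, as was the sham (2.20 to 3.36), so the size of the rises depends on the background correction.

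Ccnb2, a mitotic cyclin, read 7.99, 7.24 and 7.29 at 48 h, against 3.69, 4.23 and 4.01 at 7/8 h (3.53 ± 0.32, limma adjusted p = 0.00276). Kif20a, a motor protein of the spindle midzone, rose by 2.70 ± 0.25, Melk, a mitotic kinase, by 1.97 ± 0.15, and Aurka, the Aurora A kinase, by 1.35 ± 0.10. Aurka read 4.97, 5.01 and 5.11 at 48 h, against 3.57, 3.71 and 3.74 at 7/8 h. Mki67 and Top2a, chosen after their values were seen, rose by 3.67 ± 0.40 and 3.23 ± 0.30.

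The cell division genes were still low at 24 h. The mean log2 signal of the 32 genes was 6.62, 5.93 and 5.96 at 48 h, against 4.21, 4.25 and 4.24 at 7/8 h. At 24 h it was 4.25 with DOC, 4.74 with albumin and 4.33 with TGF-Beta1, and the sham stood at 4.06. The albumin array was thus the highest of the 24 h arrays, and Cdk1 read 4.57 there against 2.54 with DOC and 2.85 with TGF-Beta1.

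The promoters of 19 of the 22 genes that rose were in the RefSeq table (GRCr8, 250 bases before to 50 after the start). They were searched on both strands for CCAAT, the CCAAT box, and for TTTGAA, the cell cycle homology region, 2 elements known from promoters of mitotic genes. CCAAT was present in 14 of the 19 (73.7%), against 37.5% of all 33469 promoters and 38% of the 8397 promoters of tested genes. TTTGAA was present in 9 of the 19 (47.4%), against 18.3% of all promoters and 10.8% of those of tested genes. In 1 case a CCAAT and a TTTGAA match shared a base. Members of the list that did not rise were not counted apart, so these shares cannot be tied to the rise. The promoters of Cdk1 (chr20:19265043-19265342, plus strand) and Ccnb2 (chr8:79981609-79981908, minus strand) are shown because each holds 3 CCAAT and 2 TTTGAA matches, in capitals (ATTGG and TTCAAA are the other strand).
Cdk1: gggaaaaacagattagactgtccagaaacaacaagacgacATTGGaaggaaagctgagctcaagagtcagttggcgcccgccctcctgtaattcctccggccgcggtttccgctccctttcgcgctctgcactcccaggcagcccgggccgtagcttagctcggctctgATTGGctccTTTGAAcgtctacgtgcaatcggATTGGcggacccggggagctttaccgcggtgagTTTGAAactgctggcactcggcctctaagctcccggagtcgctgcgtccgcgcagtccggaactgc
Ccnb2: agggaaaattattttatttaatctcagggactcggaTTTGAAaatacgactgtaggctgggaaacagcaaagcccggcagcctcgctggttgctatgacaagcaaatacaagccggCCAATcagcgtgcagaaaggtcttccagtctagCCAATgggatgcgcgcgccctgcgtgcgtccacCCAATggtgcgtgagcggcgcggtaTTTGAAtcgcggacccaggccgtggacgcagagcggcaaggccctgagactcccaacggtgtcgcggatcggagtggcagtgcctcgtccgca

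**Figure D4:**
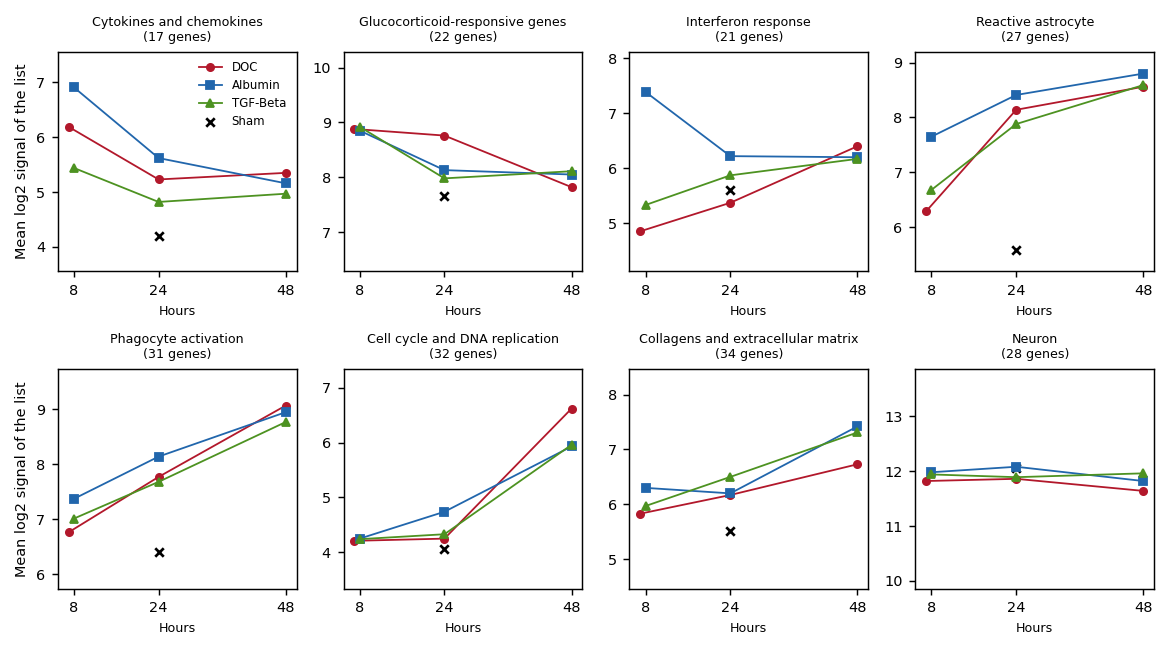
Mean log2 signal of the tested members of 8 gene lists against hours after treatment, 1 line per treatment (1 array per point), with the lone sham array at 24 h as a cross; the vertical axes differ in position but span the same range. Cell cycle signals climb between 24 and 48 h, phagocyte and astrocyte signals climb throughout, and cytokine signals fall before 24 h.

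Genes of phagocytes were another large group of rises. Of 31 phagocyte activation genes tested, 21 rose, none fell, and the median difference was 1.69. For 3 of the 31, Cd68 among them, the 48 h arrays were needed to pass the filter, and 2 of the 21 rises were among these. Cybb, the catalytic subunit of the phagocyte oxidase, read 7.53, 7.07 and 6.38 at 48 h, against 2.57, 2.97 and 2.37 at 7/8 h (4.36 ± 0.25, limma adjusted p = 0.000910). The early arrays of Cybb were near the floor, as was the sham (2.32), and the difference was 3.07 with its probe sets averaged. Cd68, a lysosomal protein of macrophages, read 4.96, 6.10 and 5.83 at 48 h, against 2.03, 2.02 and 2.13 at 7/8 h (3.57 ± 0.23, limma adjusted p = 0.000968). At 24 h Cd68 was still at the floor, at 2.13, 2.35 and 2.13. Lgals3, a galectin of phagocytes and reactive glia, read 11.51, 11.29 and 11.20 at 48 h, against 6.90, 7.97 and 7.54 at 7/8 h (3.87 ± 0.28, limma adjusted p = 0.0016). Unlike Cd68, Lgals3 had covered most of its course by 24 h, at 10.01, 11.21 and 10.19. Tyrobp, the adaptor of several microglial receptors, rose by 1.94 ± 0.15. Gpnmb and Clec7a, markers of lipid-laden and activated phagocytes chosen after their values were seen, rose by 3.61 ± 0.34 and 3.20 ± 0.26. Cd14, a sensor of bacterial products, read 7.95, 8.51 and 6.66 at 48 h, against 5.67, 7.64 and 6.60 at 7/8 h and did not pass (1.07, limma adjusted p = 0.196).

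Genes of resting microglia rose as well, with 9 of 13 higher, none lower and a median of 1.64. The 48 h arrays were needed to pass the filter for 2 of the 13, and 2 of the 9 rises were these. The mean signal of the list was 7.17, 7.42 and 7.42 at 48 h, against 5.61, 5.92 and 6.01 at 7/8 h. The sham, at 6.2, lay between the 2 times. Aif1, the microglial protein IBA1, read 8.23, 8.57 and 8.51 at 48 h, against 5.0, 6.26 and 5.93 at 7/8 h (2.70 ± 0.23, limma adjusted p = 0.00225), with a difference of 1.35 when its probe sets were averaged. Csf1r, the receptor for the growth factor CSF1, rose by 1.63 ± 0.20, Itgb2, an integrin of leukocytes, by 1.87 ± 0.17, and Tgfbr1, a receptor of TGF-β, by 1.69 ± 0.19 (0.97 with its probe sets averaged). P2ry12, the purine receptor of resting microglia, read 9.97, 9.81 and 10.01 at 48 h, against 7.58, 7.21 and 8.21 at 7/8 h (2.27 ± 0.35, limma adjusted p = 0.0166). The early values of P2ry12 were below the sham (8.88) and the 48 h values above it. The same held for Aif1 (sham 6.32), Csf1r (7.75) and Tgfbr1 (9.37), whereas Itgb2 was above its sham (4.0) on all 6 arrays. Cx3cr1, the fractalkine receptor, read 5.74, 5.92 and 5.86 at 48 h, against 4.63, 5.0 and 5.39 at 7/8 h and did not pass (0.83, limma adjusted p = 0.152).

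Of 9 complement genes tested, 5 rose (C1qc, C5ar1, Serping1, C1qa and C1qb, the last chosen after its values were seen), with a median of 1.72. The 48 h arrays were needed to pass the filter for 1 of the 9, which was not among the rises but enters the median. C1qc, a chain of the first component, read 7.56, 8.37 and 8.29 at 48 h, against 5.69, 5.63 and 6.17 at 7/8 h (2.24 ± 0.19, limma adjusted p = 0.00225). C1qa, another chain, rose by 1.83 ± 0.23, C5ar1, the receptor of the C5a fragment, by 2.75 ± 0.38, and Serping1, the C1 inhibitor, by 2.11 ± 0.28. Of 15 antigen presentation genes, 3 rose and none fell, with a median of 0.90. The 48 h arrays were needed to pass the filter for 3 of the 15, which were not among the rises but enter the median. RT1-DMa and RT1-DMb, which load peptides onto class II molecules, rose by 1.12 ± 0.17 and 2.03 ± 0.33, and Psme1, an activator of the proteasome, by 1.31 ± 0.24. With its probe sets averaged, Psme1 differed by 0.66 and did not pass (limma adjusted p = 0.0543).

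The 2 neutrophil markers tested did not pass. S100a8 read 3.62, 3.24 and 3.43 at 48 h, against 4.10, 8.75 and 6.87 at 7/8 h, and S100a9, its partner, 6.52, 5.19 and 5.10 at 48 h, against 7.12, 11.02 and 9.04 at 7/8 h. The differences were -3.15 ± 0.84 and -3.46 ± 0.84 (limma adjusted p = 0.0869 and 0.0680), and the albumin array at 8 h was the highest for both. The other 16 neutrophil and lymphocyte genes with a probe set were below the filter, among them Cd3e of T cells, at 3.86, 3.72 and 3.66 at 48 h and 3.69, 3.71 and 3.77 at 7/8 h. The part of these cells in the cytokine result was not tested.

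Reactive astrocyte genes rose, with 15 of 27 higher, none lower and a median of 1.83. Gfap, the astrocyte filament, read 13.44, 13.84 and 13.94 at 48 h, against 10.53, 12.28 and 11.83 at 7/8 h (2.19 ± 0.29, limma adjusted p = 0.00945). Vim, the filament vimentin, read 12.30, 12.40 and 12.60 at 48 h, against 9.14, 9.96 and 9.87 at 7/8 h (2.78 ± 0.18, limma adjusted p = 0.00126). S100a6, a calcium-binding protein, rose by 3.23 ± 0.27, and Ggta1, which makes the alpha-galactose epitope, by 1.76 ± 0.13 (0.88 with its probe sets averaged). Gfap was already at 13.49, 13.70 and 13.60 at 24 h. The sham read 12.07 for Gfap, above the early arrays of DOC and TGF-Beta1 and below that of albumin. The median of the list was 1.09 with albumin, against 2.26 with DOC and 2.11 with TGF-Beta1; the mean signal of the list on the 8 h albumin array was 7.65, above the early arrays of DOC (6.29) and TGF-Beta1 (6.68).

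Of 17 astrocyte genes for potassium, water and glutamate handling, 1 (Gjb6) fell and none rose. Aqp4, the water channel, read 13.04, 13.37 and 13.37 at 48 h, against 12.84, 12.82 and 12.97 at 7/8 h (0.38, limma adjusted p = 0.193). Slc1a2, the main glutamate transporter, differed by -1.02 ± 0.24 (limma adjusted p = 0.0627), lower on all 3 arrays at 48 h.

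Extracellular matrix genes rose, with 13 of 34 higher, none lower and a median of 0.82. The 48 h arrays were needed to pass the filter for 2 of the 34, and 2 of the 13 rises were these. Fbln2, a fibulin of basement membranes, read 8.78, 8.65 and 8.74 at 48 h, against 5.69, 5.95 and 5.81 at 7/8 h (2.91 ± 0.15, limma adjusted p = 0.000653). Col6a3, a chain of collagen VI, rose by 2.73 ± 0.17, Ncan, the proteoglycan neurocan of perineuronal nets, by 2.22 ± 0.24, and Postn, periostin, by 1.15 ± 0.14. Of 11 meningeal markers, 4 rose and none fell, namely Col1a2 (2.38 ± 0.32), Col1a1 (1.49 ± 0.27), Lum (2.43 ± 0.48) and Col3a1 (2.63 ± 0.57), all of which are also on the matrix list. Col1a1 passed the filter through the 48 h arrays alone. The mean signal of the 11 was 6.09 to 7.83 at 48 h and 5.53 to 6.73 at 7/8 h, and for Ptgds, a defining marker, it was 10.40, 11.87 and 12.03 at 48 h, against 11.35, 12.85 and 12.33 at 7/8 h. The part of meninges in the rise of the collagens was not tested. Of 13 proteases and their inhibitors, Timp2 (1.05 ± 0.12) and Mmp2 (1.77 ± 0.35) rose, and Mmp2 passed the filter through the 48 h arrays alone.

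Of 28 vessel and barrier genes, 9 rose and 1 fell, with a median of 0.44. The 48 h arrays were needed to pass the filter for 1 of the 28, which was 1 of the 9 rises. Ocln, the tight junction protein occludin, read 6.81, 6.38 and 7.10 at 48 h, against 4.90, 4.60 and 5.41 at 7/8 h (1.79 ± 0.18, limma adjusted p = 0.00378), with a difference of 1.08 when its probe sets were averaged. Abcg2, an efflux pump of brain endothelium, read 7.52, 7.59 and 7.90 at 48 h, against 6.32, 5.15 and 6.12 at 7/8 h (1.80 ± 0.24, limma adjusted p = 0.00972). The sham read 6.28 for Ocln and 7.39 for Abcg2, so the early arrays were below the sham and the 48 h arrays above it. Abcg2 was lowest at 24 h, at 4.31, 4.30 and 4.50. Cldn5, the main claudin of the barrier, rose by 1.10 ± 0.23 (limma adjusted p = 0.0432), and Vwf, the clotting factor of endothelium, by 1.70 ± 0.26. Mfsd2a, the lipid transporter that restrains transcytosis, went the opposite way, with 5.69, 5.46 and 5.88 at 48 h, against 6.92, 6.92 and 7.31 at 7/8 h (-1.37 ± 0.14, limma adjusted p = 0.00483). Its sham read 5.72, so the early arrays were above the sham and the 48 h arrays close to it. Pecam1 of endothelium read 5.08, 5.06 and 5.05 at 48 h, against 5.07, 5.01 and 5.09 at 7/8 h.

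Of 3 red cell genes tested, 2 fell. Hbb, the beta globin, read 11.94, 12.54 and 12.49 at 48 h, against 13.43, 13.68 and 13.12 at 7/8 h (-1.09 ± 0.24, limma adjusted p = 0.0494), and Alas2, the haem enzyme of red cells, fell by 1.67 ± 0.26 (limma adjusted p = 0.0175). The sham read 11.35 for Hbb, below all 6 arrays. The part of blood left in the tissue in the other results was not tested.

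For interferon genes the treatments went apart, a difference that was not tested. The median difference of the 21 genes tested was 0.30, with 1.17 with DOC, -0.68 with albumin and 0.66 with TGF-Beta1, and 3 genes rose (Ifitm1, Ifitm2 and Bst2). Bst2 read 6.98, 7.28 and 7.69 at 48 h, against 3.16, 6.58 and 5.02 at 7/8 h (limma adjusted p = 0.0483). With its sham at 7.08, the early arrays of Bst2 were below the sham and the 48 h arrays were on both sides of it. The difference was below 0 for 16 of 21 genes with albumin, for 1 with DOC and for 4 with TGF-Beta1. The albumin array at 8 h was the highest of the 6 arrays for 13 of the 21. Isg15, a ubiquitin-like protein chosen after its values were seen, read 5.83, 4.71 and 3.98 at 48 h, against 2.28, 9.26 and 3.15 at 7/8 h. Rsad2, an antiviral enzyme chosen likewise, read 7.23, 5.90 and 6.13 at 48 h, against 6.34, 11.34 and 6.57 at 7/8 h. The median was 0.71 without the albumin array at 8 h and -0.15 without the DOC arrays. With 1 array per treatment and time, a response to albumin and a peculiarity of that animal cannot be told apart.

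**Figure D5:**
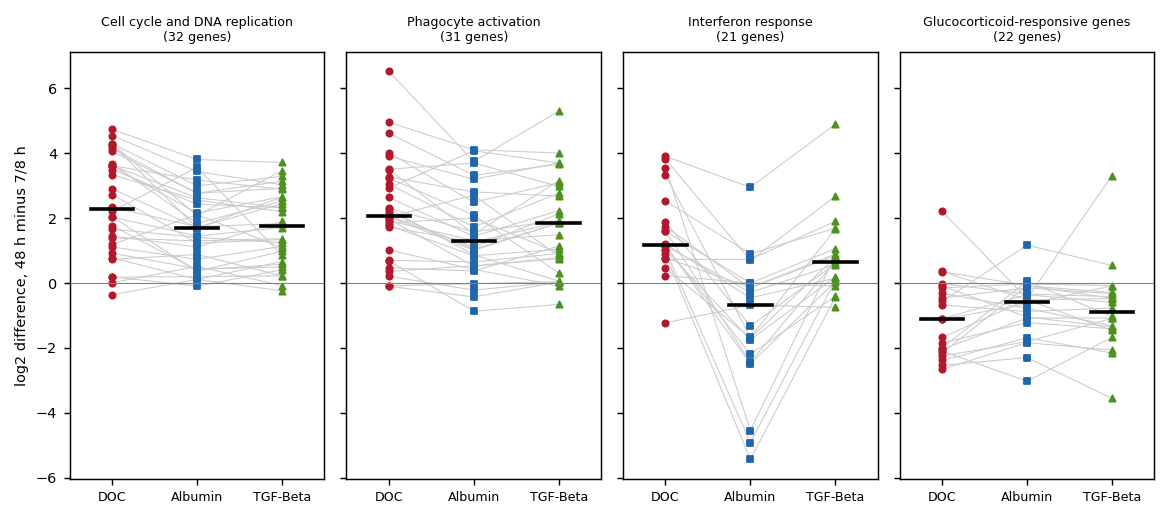
Log2 difference (48 h minus 7/8 h) of each tested member of 4 gene lists by treatment, grey lines joining a gene across treatments and black bars at the medians. Cell cycle and phagocyte members lie mostly above 0 and glucocorticoid members mostly below 0 in all 3 treatments, while interferon members split, with medians of 1.17, -0.68 and 0.66 for DOC, albumin and TGF-Beta1.

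Neuronal genes had a median close to that of all genes. Of 28 pan-neuronal genes, 0 passed by limma and the median difference was -0.04, although Rbfox3, the nuclear protein NeuN, was close to the threshold (-0.66 ± 0.15, limma adjusted p = 0.0516). Of 35 voltage-gated and HCN channel genes, 33 had a difference below 0 and the median was -0.37, and 2 fell. Kcnq3, a subunit of the M current, read 5.82, 5.44 and 6.33 at 48 h, against 6.70, 6.57 and 7.08 at 7/8 h (-0.92 ± 0.14, limma adjusted p = 0.0150). With its probe sets averaged, Kcnq3 differed by -0.46 and did not pass (limma adjusted p = 0.0548). Scn3b, an auxiliary subunit of sodium channels, fell by 0.63 ± 0.13 (limma adjusted p = 0.0446). Of 29 genes of glutamate receptors and excitatory synapses, 25 were below 0, with a median of -0.34. Slc17a6, the vesicular glutamate transporter VGLUT2, read 6.28, 5.33 and 4.01 at 48 h, against 7.44, 7.58 and 6.95 at 7/8 h (-2.12 ± 0.44, limma adjusted p = 0.0431), while Slc17a7, VGLUT1, differed by -0.05 (limma adjusted p = 0.919). Grin2c, an NMDA receptor subunit, rose by 1.12 ± 0.19 (limma adjusted p = 0.0215). Camk2a, a kinase of the synapse, read 8.12, 8.34 and 11.22 at 48 h, against 10.41, 11.69 and 11.59 at 7/8 h and did not pass (-2.0 ± 0.54, limma adjusted p = 0.0906).

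Of 26 genes of GABA signalling and interneurons, Pvalb, the parvalbumin of fast-spiking cells, read 9.91, 10.04 and 10.05 at 48 h, against 10.51, 10.61 and 10.85 at 7/8 h (-0.65 ± 0.12, limma adjusted p = 0.0276). No other gene of that list passed. Striatal markers, a sign of dissection below the cortex, had a mean signal of 6.59, 7.24 and 7.08 at 48 h, against 6.96, 7.72 and 8.55 at 7/8 h. Drd2 and Adora2a were highest on the TGF-Beta1 array at 8 h, at 4.62 and 5.16. On the other 5 arrays Drd2 read 1.90 to 2.44, and Adora2a read 3.36 on the DOC array at 7 h and 2.55 to 2.58 elsewhere. None of the 7 markers tested passed. The part of the dissection in the neuronal results was not tested.

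Among the other lists, Tgfbr1 and Id3, an inhibitor of differentiation induced by TGF-β and BMP signals, rose among 26 TGF-β genes, Id3 by 1.16 ± 0.23. Growth factor genes held 2 rises of 24, Igfbp2 (2.56 ± 0.21), which binds insulin-like growth factors, and Igf1 (1.28 ± 0.19). Of 24 genes of the unfolded protein response, 3 rose, namely Pdia6 (0.79 ± 0.14), Creld2 (0.68 ± 0.14) and Sdf2l1 (1.40 ± 0.30), all of the endoplasmic reticulum. Soat1, which esterifies cholesterol, rose by 1.34 ± 0.20 (0.74 with its probe sets averaged), Aspa, an enzyme of oligodendrocytes, fell by 1.28 ± 0.18, and Cryab, a small heat shock protein, fell by 1.0 ± 0.15. Of 45 genes of oxidative phosphorylation, 28 of ribosome biogenesis, 18 of the circadian clock, 18 of the NRF2 and hypoxia responses and 12 of growth arrest, 0 passed by limma.

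The 24 h arrays placed the changes in time. For the 392 higher genes, the 24 h mean had covered a median of 35.9% of the course from 7/8 h to 48 h, and it was below 25% for 158 and above 75% for 53. For the 118 lower genes the median was 66.0%, with 15 below 25% and 46 above 75%. The same early values enter both numbers, and the 24 h arrays entered the estimate of spread.

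The lone sham gives a level to set both times against, without a test. Of the higher genes, 211 had a 48 h mean at least 1 above the sham and a 7/8 h mean within 1 of it, while 27 had both means at least 1 above it. In 19, the 7/8 h mean was at least 1 below the sham and the 48 h mean within 1 of it, and in 133 both means were within 1 of it. Of the lower genes, 29 had a 7/8 h mean at least 1 above the sham and a 48 h mean within 1 of it, and 35 a 48 h mean at least 1 below the sham with the early mean within 1 of it, while in 51 both means were within 1 of it.

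The size of the differences varied with the treatment, which was not tested. Among the 392 higher genes the median difference was 1.56 with DOC, 1.24 with albumin and 1.35 with TGF-Beta1, and DOC gave the largest of the 3 for 236 genes. Among the 118 lower genes the medians were -1.07, -0.96 and -0.88. Over all genes tested, 629 were at least 2-fold higher at 48 h with DOC, 413 with albumin and 441 with TGF-Beta1, of which 210 were shared by all 3, and 404, 255 and 170 were at least 2-fold lower, of which 35 were shared. Across genes, which are not independent replicates, the differences of 2 treatments had Pearson correlations of 0.48 (DOC and albumin), 0.61 (DOC and TGF-Beta1) and 0.62 (albumin and TGF-Beta1). DOC was sampled at 7 h and the others at 8 h, so agent and hour cannot be told apart.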

How the data were processed

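Expression was measured on Affymetrix arrays in 19 samples of rat somatosensory cortex, with total RNA extracted by Trizol and biotin-labelled cRNA, per the labels' protocols. The authors deposited a log2 signal per probe set, and the submitters' processing notes name GCRMA, whose version is not given in the sources used here. The log2 signals were used as deposited. GCRMA corrects for probe background, so a signal near the floor, and any fold against it, depends on that step.

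Of 31099 probe sets, 20826 named 1 gene through the platform annotation and the RefSeq table of assembly GRCr8. Where several probe sets named a gene (4525 of 14217 genes), that of highest mean signal on the 19 arrays stood for it, and 10018 with log2 above 4 on at least 2 set 1 arrays were tested. The 9 treated arrays of set 1 were fitted with limma 3.58.1 (R 4.3.3; time class plus treatment, lmFit and eBayes), contrast 48 h minus 7/8 h, threshold an adjusted p under 0.05. SE is the moderated standard error. Nothing says that animals were pooled, and p-values measure the spread between these arrays alone. Precision is limited by how few arrays there were. The fit was tested on simulated data. Tables were made in pandas 2.3.3 (Python 3.11.15, numpy 2.4.6) and plots in matplotlib 3.10.9.

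The comparison and the 37 lists were chosen with earlier results of these data known. Among genes that passed with no overlap between arrays, the 12 that rose most and the 12 that fell most were named, as were 4 per list by smallest p and the cell type markers; others are said to be chosen after their values were seen, or are named because they complete a count. Some markers are not reported here. Alternatives were the filter, the choice of probe set, array scaling, moderation, the block and the arrays left out. Set 2 was not analysed here.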

Additional observations from a re-analysis of the deposited data

Results flagged for a closer look

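The interferon response list moved in opposite directions, with a median log2 difference (48 h minus 7/8 h) of 1.17 with DOC, -0.68 with albumin and 0.66 with TGF-Beta1. The list of matrix proteases, TIMPs and plasminogen activators had medians of -0.33 with DOC, 0.03 with albumin and 0.54 with TGF-Beta1. Each rests on 1 array per treatment and time, and the difference between treatments was not tested.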

How the results depend on the processing

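Which genes passed depended on the arrays in the fit and on the filter. With 1 array or 1 treatment left out in turn, between 6 and 573 genes passed, between 6 and 433 as higher and between 0 and 140 as lower. The lowest values are without the TGF-Beta1 arrays, where 79 of the 84 named genes that had passed no longer did. Each fit without 1 treatment left 2 residual degrees of freedom, and 236 genes passed without the DOC arrays and 213 without the albumin arrays. Single arrays that moved the count by over 1.5 times were DOC at 7 h (167 genes passing without it) and 48 h (303), albumin at 8 h (230) and TGF-Beta1 at 8 h (172), 48 h (208) and 24 h (338), and albumin at 48 h moved the count of lower genes (69 of 346 passing); leaving out 24 h arrays was chosen after seeing the data. Of the 24 largest changes, 20 missed the threshold in at least 1 such fit. With no filter on low values 286 genes passed (224 higher, 62 lower), and with the 6 arrays of the comparison alone 351 (281 higher, 70 lower). With no replicate block for treatment 434 passed (337 higher, 97 lower); replicate numbers exist in set 2 alone and did not enter. Moderation, scaling, stricter filters and averaged probe sets left the counts within 1.5 times. Of the 84 named genes that had passed, 34 no longer did with no filter, 14 with no block, 13 with the 6 arrays alone and 8 with averaged probe sets. Among the 37 lists, 9 medians changed sign under some alternative, of which the cytokine median (-1.02, and 0.17 with the filter at a mean above 5) was the one furthest from 0. Depth is not defined for arrays, and signals near the floor limit the size of the largest rises.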

Other observations

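Genes outside the lists, chosen after their values were seen, added to the picture. A2m, the acute-phase protease inhibitor alpha-2-macroglobulin, read 8.76, 10.17 and 10.07 (DOC, albumin and TGF-Beta1) at 48 h, against 6.21, 6.94 and 6.65 at 7/8 h (3.07 ± 0.25, limma adjusted p = 0.00203). S100a4 and S100a11, calcium-binding proteins of motile cells, rose by 3.75 ± 0.41 and 3.82 ± 0.56. Pdpn, podoplanin, a membrane protein that reactive astrocytes can carry, rose by 2.42 ± 0.41 (limma adjusted p = 0.0230). Folr2, a folate receptor of resident macrophages of brain borders, read 4.22, 5.08 and 5.29 at 48 h, against 2.06, 2.05 and 2.09 at 7/8 h (2.80 ± 0.23), and was still at 2.06 to 2.12 at 24 h.

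Ddc and Rpe65 were not monotonic over the 3 times. Ddc, which makes dopamine and serotonin from their precursors, read 5.35, 5.10 and 5.48 at 48 h, against 2.86, 3.72 and 3.60 at 7/8 h (1.92 ± 0.20, limma adjusted p = 0.00489), with 2.68, 2.92 and 2.89 at 24 h and 6.13 in the sham. Rpe65, the retinoid isomerase, read 6.56, 5.78 and 6.99 at 48 h, against 8.82, 7.61 and 7.84 at 7/8 h (-1.64 ± 0.28, limma adjusted p = 0.0222), with 5.19, 4.90 and 5.22 at 24 h and 4.88 in the sham. Agt, angiotensinogen of astrocytes, fell by 1.76 ± 0.30 and ended below the sham (9.54), at 7.01, 7.00 and 8.36. Tnnc2, Myh3 and Acta1 of muscle fell by 1.49 ± 0.28, 1.0 ± 0.16 and 0.89 ± 0.12; the part of muscle tissue in the samples was not tested.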
